A study of Mus musculus with 30 samples.

Results

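The comparison described here is the 12 h cultures against the 4 h cultures, 1 step in a time course of mouse leg muscle cells. It comprises 12 of the 30 arrays of the series, namely every array that the titles place at 12 h or 4 h: 3 replicates at 12 h and 3 at 4 h, each hybridised to both chips (A and B) of an Affymetrix set. The other 18 arrays hold cultures at 0, 24 and 48 h. They entered the fits to estimate the spread and the replicate 3 term described below. They also counted in the pseudocount and in the filter on dim probe sets. The labels name total RNA from mouse leg muscle in cell culture as the material of all groups, with no genotype, strain, age or agent. Neither the medium nor the event that defines 0 h is given, and nothing says whether replicates were separate cultures. The p-values therefore describe only the array-to-array spread, which may be technical.

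Cultured muscle precursors, the myoblasts, divide until they leave the cell cycle, switch on the myogenic transcription factors in sequence and fuse into myotubes, which then build sarcomeres and the enzymes that feed contraction. Myod1 and Myf5 act in the dividing precursor and Myog and the Mef2 factors later. Sarcomere proteins, the calcium stores of the sarcoplasmic reticulum and the muscle isoforms of energy enzymes follow.

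Markers of the labelled tissue were bright on all arrays of both hours. All 8 muscle markers (Myod1, Myog, Des, Myh3, Ckm, Acta1, Mef2c and Ttn) were measured, and their summed intensity was 52355 to 57437 at 12 h and 46496 to 51079 at 4 h. Fibroblast markers summed to 686 to 1108 at 12 h and 564 to 812 at 4 h, and 1 of 8 passed the filter on dim probe sets. Endothelial markers summed to 263 to 404 and 203 to 256 in the same order, and markers of macrophages and leukocytes to 425 to 623 and 394 to 610. Pericyte and smooth muscle markers summed to 1917 to 2823 at 12 h and 1330 to 3393 at 4 h, and 3 of 6 passed the filter. Among them Rgs5 read 1813 and 1785 at 12 h and 2402 and 2592 at 4 h in replicates 1 and 2. In replicate 3 it read 69.1 at 12 h and 108.5 at 4 h. Adipocyte markers summed to at most 120, red cell markers to at most 123 and Schwann cell markers to at most 237 at either hour. Every array had been scaled to the same trimmed mean, 500.1 to 500.2. In such bulk samples fewer cells of a type and less RNA per cell cannot be told apart.

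With hour as the only factor, limma called no probe set between 12 h and 4 h: 0 of 13576 tested on A and 0 of 13507 on B at an adjusted p under 0.05, with 647 (4.77%) and 1039 (7.69%) at an unadjusted p under 0.05. Replicate 3 stood apart from replicates 1 and 2 at all hours. Across the 5 hours all 43 tested genes of mitosis were higher in replicate 3 than in replicates 1 and 2, with a median log2 difference of 1.02, whereas 34 of 90 contractile and energy genes were (median -0.11). The step was therefore also fitted with a term for replicate 3, below called the batch fit. It called 12 A probe sets (0.0884%), 6 higher and 6 lower at 12 h, and 2 B probe sets (0.0148%), both lower. With the replicate number as a block of 3 levels 1 remained on A (0.00737%), a Vegfc probe set. Replicates 1 and 2 alone gave 196 on A (1.44%), 96 higher and 100 lower, and 15 on B (0.111%), 12 higher and 3 lower. Log2 changes are the same in the first 2 fits, since every hour has every replicate, and only the spread differs. For 1 gene taken alone, an exact two-sided permutation test over 3 and 3 arrays has a smallest possible p of 0.1.

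The A calls of the batch fit depended on single arrays. Leaving out 1 array left 2 calls without the 4 h array of replicate 1, 0 without that of replicate 2 and 4 without that of replicate 3. Among the 12 h arrays, omitting replicate 1 left 0, omitting replicate 2 left 1 and omitting replicate 3 left 5. The 2 B calls became 4 without the 4 h array of replicate 1 or of replicate 2.

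The vascular growth factor gene Vegfc fell and was called on both chips. It encodes the secreted ligand best known for lymphatic vessel growth, and all 3 of its tested probe sets were lower at 12 h. On the A chip its intensity was 141, 192 and 91.5 at 12 h, against 357, 496 and 281 at 4 h. One B probe set read 624, 475 and 309 at 12 h, against 1992, 1809 and 1072 at 4 h, and the other read 2928, 2741 and 2240.3 at 12 h, against 7297, 8165 and 4752 at 4 h. In each the 3 arrays at 12 h lay below the 3 at 4 h. These amounted to log2 changes of -1.26 ± 0.16, -1.68 ± 0.17 and -1.31 ± 0.15 (SE, n = 3 arrays per hour), at a limma adjusted p = 0.00774, 0.000524 and 0.00109 in the batch fit. With the replicate number as a block the A probe set was called too, at an adjusted p of 0.00738 for the A probe set. Over the time course the A probe set averaged 469 at 0 h, 378 at 4 h, 142 at 12 h, 90.6 at 24 h and 97.7 at 48 h. Among the 13 tested genes of the VEGF and angiopoietin list the median log2 change was 0.01, with 7 above and 6 below 0. Vegfc was the only one called in the batch fit, where 0.0402% of all genes were called lower. Pdgfb (a ligand that draws in pericytes), Tek (the angiopoietin receptor) and Kdr (the main VEGF receptor of blood vessels) had log2 changes of 0.37, 0.44 and 0.52, with adjusted p = 0.353, 0.38 and 0.439. Another Pdgfb probe set went the other way. The sums of the 6 endothelial markers given above, Tek among them, were higher on every 12 h array than on any 4 h array, with Tek the only one to pass the filter on dim probe sets and Vwf at 4.4 or less, and their part in these values was not tested.

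**Figure D1:**
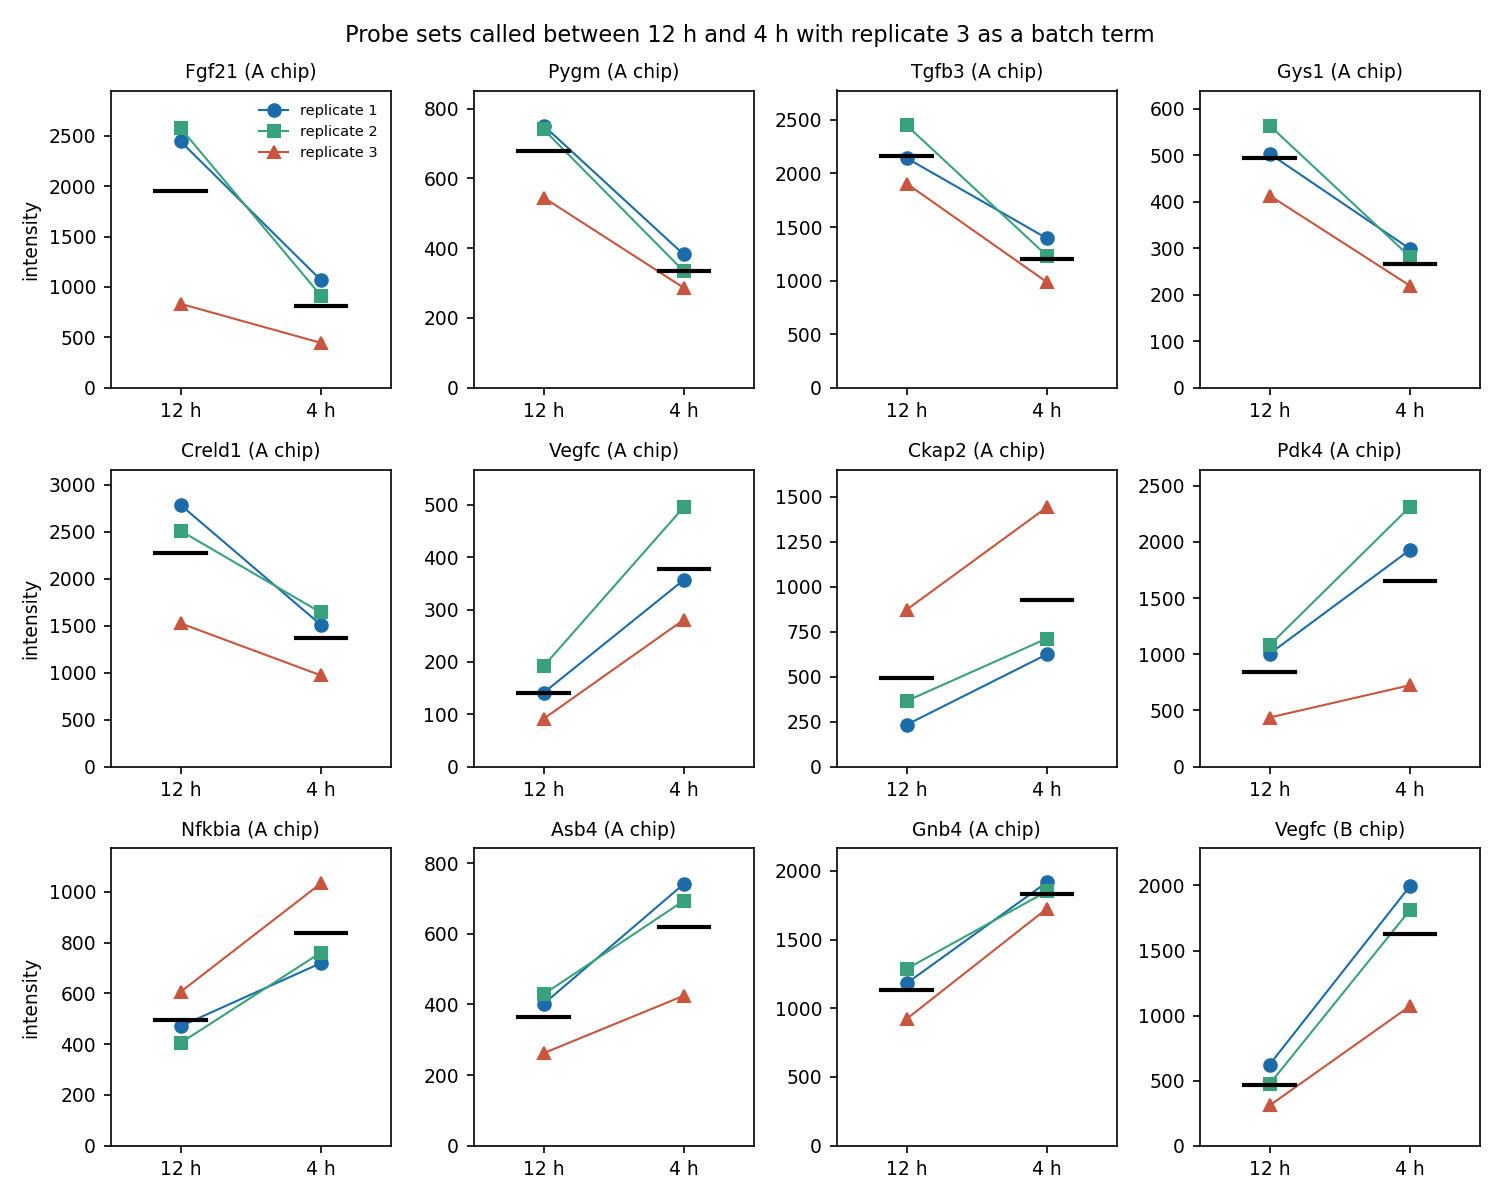
Intensity (linear scale from 0) of 12 probe sets called with replicate 3 as a batch term. The second called Vegfc probe set of the B chip and a called A probe set without a gene name are not drawn. Each panel has the 3 arrays at 12 h on the left and the 3 at 4 h on the right. Lines join arrays of the same replicate number and black bars give the means. In each panel the lines of all 3 replicates slope the same way. Replicate 3 lies at another level in Fgf21, Creld1, Ckap2, Pdk4 and Asb4, where the arrays of the 2 hours overlap, while those of Vegfc, Pygm, Tgfb3, Gys1, Nfkbia and Gnb4 do not.

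Genes that supply energy to contraction had higher intensities at 12 h, Pygm among them past the test. Of 18 listed genes 14 were tested, and all 14 had a log2 change above 0, with a median of 0.77 against 0.02 over all 12446 genes tested. The batch fit called 1 of them, Pygm (0.0321% of all genes were called higher). Replicates 1 and 2 alone called 7 of the 14 higher and 0 lower, against 0.667% higher over all genes. An unadjusted p under 0.05 with a higher value was reached by 9 of 14 in the batch fit, against 6.66% of all genes.

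Pygm encodes muscle glycogen phosphorylase, which breaks glycogen down for glycolysis. Its intensity was 752, 741 and 545 at 12 h, against 382, 334 and 287 at 4 h. The hours did not overlap and each replicate was higher at 12 h. The log2 change was 0.96 ± 0.14 (adjusted p = 0.0284 in limma's batch fit, 0.0531 with the replicate block and 0.00632 over replicates 1 and 2 alone). Gys1, muscle glycogen synthase, of the glycolysis and glycogen list, makes the polymer that Pygm breaks down. One of its probe sets read 503, 564 and 413 at 12 h, against 299, 282 and 219.7 at 4 h, again without overlap, a log2 change of 0.82 ± 0.14 (adjusted p = 0.0309, 0.0555 with the block). Its brighter probe set averaged 883 ± 213 at 12 h and 630.3 ± 171 at 4 h (SD, n = 3), a log2 change of 0.48 ± 0.13 that was not called (adjusted p = 0.174). Ckm, the muscle creatine kinase that buffers ATP, read 1668, 1486 and 2347 at 12 h, against 519.8, 594 and 1494 at 4 h. Replicates 1 and 2 were far brighter at 12 h than at 4 h, whereas replicate 3 was already bright at 4 h, and the groups overlapped. Its log2 change was 1.18 ± 0.26 (adjusted p = 0.1 in the batch fit). Without replicate 3 it was 1.45 (adjusted p = 0.00115). Its B probe set had a smaller change of 0.41 (adjusted p = 0.4). Cox6a2, the muscle isoform of a cytochrome c oxidase subunit, averaged 1253 ± 80.2 at 12 h and 557 ± 231 at 4 h, with a log2 change of 1.20 (adjusted p = 0.142, 0.000853 over replicates 1 and 2). Adssl1, the muscle adenylosuccinate synthase of the purine nucleotide cycle, averaged 494 ± 121 at 12 h and 253 ± 48.8 at 4 h, with adjusted p = 0.192 and 0.0892.

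Genes of the contractile apparatus had the same sign. The lists of thick filament, thin filament, Z-disc with titin and M-band, and excitation-contraction coupling had median log2 changes of 0.65, 0.44, 0.49 and 0.49. Values were above 0 in 13 of 13, 17 of 20, 23 of 25 and 17 of 18 tested genes. No member of these 4 lists was called in the batch fit. Over replicates 1 and 2 alone 5, 6, 7 and 7 were called higher and 0 lower, against 0.667% higher and 0.498% lower over all genes. With the energy list they make up 90 tested genes of 108 listed. Of these 84 had a log2 change above 0. At an unadjusted p under 0.05 in the batch fit 51 were higher and 1 lower, against 6.66% and 4.8% of all genes. Over replicates 1 and 2 alone 32 were called higher, against 0.667%. In 34 of the 90 every array at 12 h exceeded every array at 4 h, against 6.87% of all genes. In 66 of the 90 the 12 h array was higher in all 3 replicates, against 18.1% of all genes. The medians of all 5 lists kept their sign under quantile normalization and under centring on the array median. These counts are descriptions and carry no test. The muscle marker sum given above was higher on every 12 h array than on any 4 h array. That sum shares genes with these lists, Ckm and Ttn among them, so it is no separate measure. Its part in the counts was not tested.

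Within the thick filament list, Mybpc1, the slow isoform of myosin binding protein C, had the smallest p. Another B probe set of Mybpc1 gave a log2 change of 0.59 (adjusted p = 0.257), and its hours overlapped. A pair of its B probe sets gave 0.99 and 0.97, the second being the brighter, and the hours overlapped in the second. The first read 2945, 2585 and 1735 at 12 h, against 1459, 1144 and 933 at 4 h, without overlap, with an SE of 0.19 (adjusted p = 0.14, 0.0238 over replicates 1 and 2). Its means were 1159.8 at 0 h, 1179 at 4 h, 2422 at 12 h, 3927 at 24 h and 5547 at 48 h. Unc45b, the chaperone that folds myosin heads, averaged 5492 ± 713 at 12 h and 3202 ± 286 at 4 h (log2 change 0.76, adjusted p = 0.18). Hspb7, a small heat shock protein of muscle listed here for its place in the sarcomere, averaged 261 ± 99.5 at 12 h and 157 ± 72.8 at 4 h (adjusted p = 0.227). The embryonic myosin heavy chain Myh3 averaged 8108 ± 359 at 12 h and 5686 ± 429 at 4 h and the fast adult chain Myh1 3476 ± 401 at 12 h and 2049 ± 357 at 4 h. For neither gene did the arrays of the hours overlap, and both passed over replicates 1 and 2 alone (adjusted p = 0.0482 and 0.00835) but not in the batch fit (0.318 and 0.264).

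In the thin filament Lmod3, a nucleator that sets filament length, had 7683, 8102 and 6544 at 12 h, against 3316, 2820.3 and 4860.4 at 4 h. The log2 change was 1.04 ± 0.32 with adjusted p = 0.257 in the batch fit and 0.00286 over replicates 1 and 2. Tnnc2 and Tnnt3, the fast troponins C and T, averaged 4711 ± 1557 at 12 h and 2706 ± 1563 at 4 h and 5316 ± 520.1 at 12 h and 3476 ± 504 at 4 h, with adjusted p = 0.204 and 0.219, and both were called over replicates 1 and 2. Xirp1, an actin-binding protein of the cell's tendon-like junctions, averaged 1381 ± 228 at 12 h and 814 ± 77.5 at 4 h (adjusted p = 0.16). Acta1, the skeletal actin that is the filament itself, was bright at both hours: 14974, 13658 and 14745 at 12 h, against 11458, 14016 and 14612 at 4 h, a log2 change of 0.12 ± 0.14 (adjusted p = 0.817).

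Of the Z-disc and M-band genes, Csrp3 (muscle LIM protein), Ankrd2 (a stretch-responsive ankyrin repeat protein) and Pdlim3 (an actinin-binding LIM protein) had log2 changes of 0.61, 0.83 and 0.42. Their adjusted p in the batch fit were 0.0796, 0.105 and 0.118. Csrp3 read 961, 929 and 1197 at 12 h, against 543, 614 and 867 at 4 h, without overlap, and passed over replicates 1 and 2 alone (adjusted p = 0.0263). Fbxo32 (atrogin-1), a ubiquitin ligase placed in this list for its muscle targets, was one of its 2 genes below 0, beside titin itself (Ttn, log2 change -0.07). Fbxo32 read 1240.3, 1545 and 221 at 12 h, against 1977, 2254 and 467 at 4 h. It was lower at 12 h in each replicate, but replicate 3 was far dimmer than the others at both hours (log2 change -0.73 ± 0.18, adjusted p = 0.131).

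The calcium handling genes with the smallest p were those of reuptake and storage in the sarcoplasmic reticulum. Atp2a1, the fast calcium pump, read 2454, 2514 and 1678 at 12 h, against 1141, 1513 and 1113 at 4 h. Its inhibitor sarcolipin, Sln, read 251, 259 and 178 at 12 h, against 91.2, 79.0 and 114 at 4 h. Casq2, a calcium-binding store protein, read 4089, 4023 and 4699 at 12 h, against 1841, 1759 and 2758 at 4 h. None of the 3 overlapped between the hours. These amounted to log2 changes of 0.80 ± 0.18, 1.05 ± 0.26 and 1.03 ± 0.29. In the batch fit the adjusted p were 0.102, 0.119 and 0.172. All 3 passed when replicates 1 and 2 were fitted alone (0.0254, 0.00795 and 0.000853). Atp2a2, the slow pump, averaged 5323 ± 775 at 12 h and 3773 ± 256 at 4 h (adjusted p = 0.197). Another of its probe sets went the other way. Chrna1, a subunit of the acetylcholine receptor, averaged 10598 ± 1058 at 12 h and 11188 ± 1169.6 at 4 h (log2 change -0.08 ± 0.11).

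**Figure D2:**
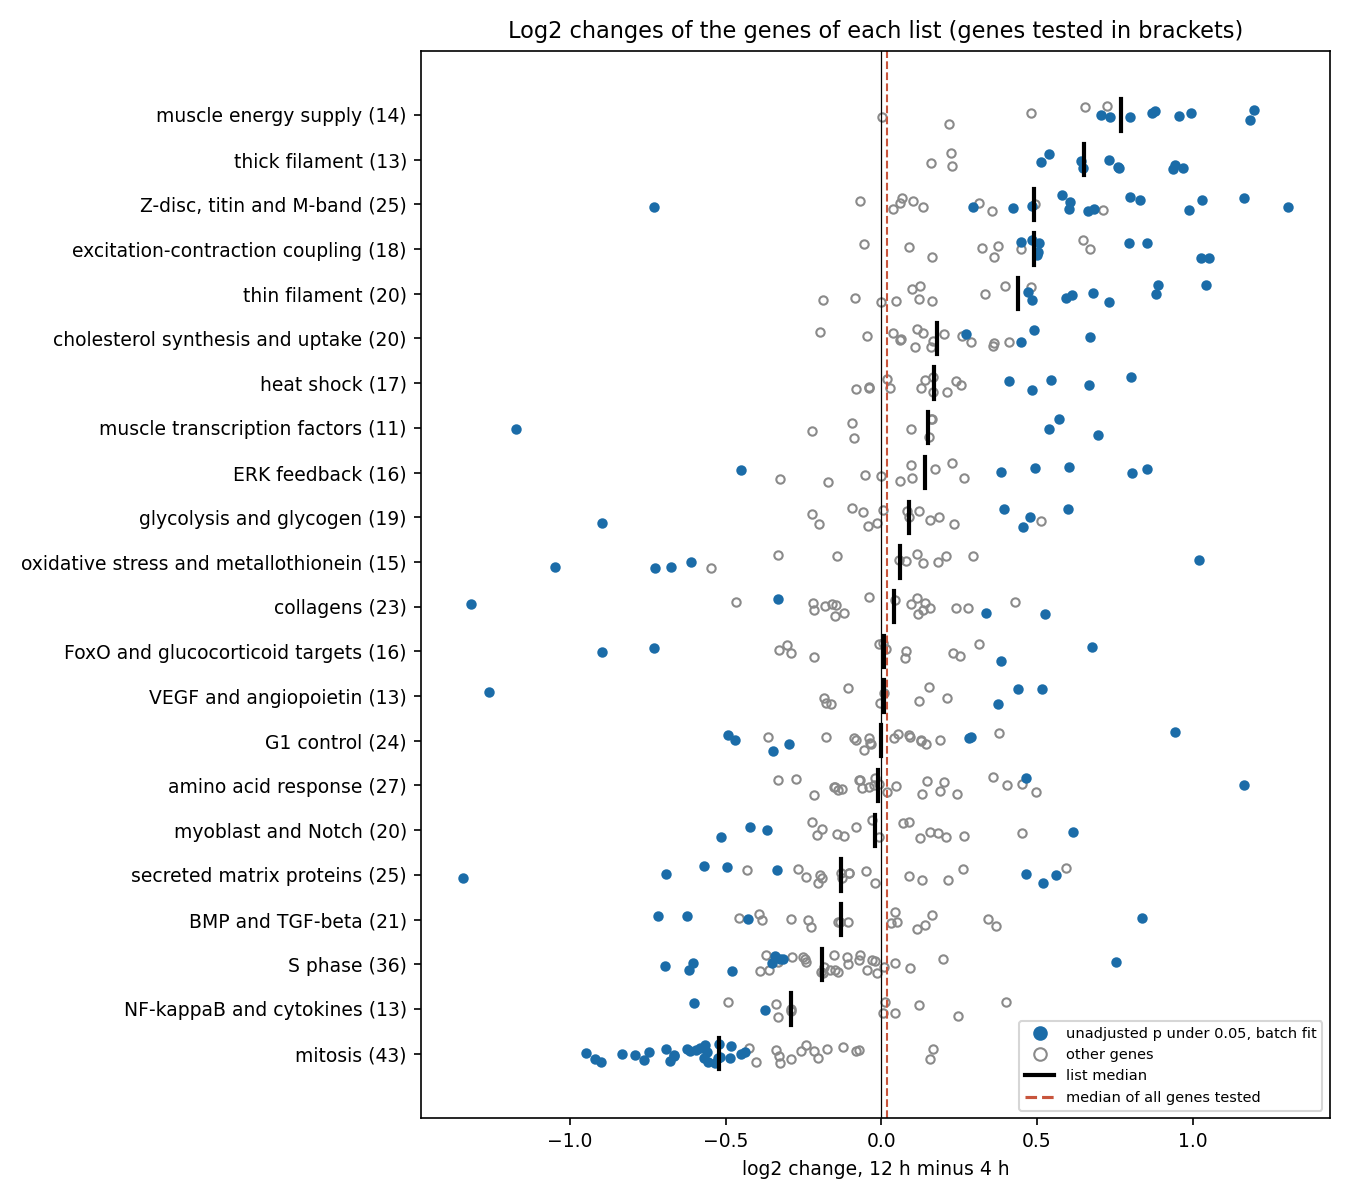
Log2 change (12 h minus 4 h) of each tested gene in the 22 lists described, 1 row per list ordered by its median (black bar), with filled points for genes at an unadjusted p under 0.05 in the batch fit, open points for the others and a dashed line for the median of all genes, 0.02. The 5 contractile and energy lists sit to the right (medians 0.44 to 0.77), mitosis to the left (median -0.52), and most other lists straddle 0.

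The transcription factors above these genes gave no call. Of the 11 tested muscle transcription factors, 3 were higher and 1 lower at an unadjusted p under 0.05, against 6.66% and 4.8% of all genes. The median log2 change was 0.15, and none passed after adjustment in the batch fit. Myog read 12722, 12100.4 and 11160.1 at 12 h, against 11523, 10650.3 and 10186 at 4 h, a log2 change of 0.15 ± 0.10 (adjusted p = 0.642), and Myod1 averaged 7784 ± 559.9 at 12 h and 8299.5 ± 1045 at 4 h (-0.09 ± 0.12, adjusted p = 0.852). Both were among the bright transcripts at each hour, and their 2 groups overlapped. Mef2c, which works with them on muscle promoters, read 2188, 2177 and 2125 at 12 h, against 1412, 1042 and 1575 at 4 h. The groups were separate, and the change of 0.70 ± 0.28 passed over replicates 1 and 2 alone (adjusted p = 0.0209) but not in the batch fit (0.354). Myf5, the precursor's factor, had the largest difference of the list: 215, 180.0 and 125 at 12 h, against 483, 414 and 368 at 4 h, without overlap, a log2 change of -1.17 ± 0.29 (adjusted p = 0.119, 0.0965 over replicates 1 and 2). Myf6 was dim and averaged 117 ± 46.3 at 12 h and 83.2 ± 62.6 at 4 h (adjusted p = 0.318). Tead4, which binds promoters of muscle genes, averaged 452 ± 58.6 at 12 h and 295 ± 37.6 at 4 h (adjusted p = 0.353).

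Genes of the precursor state and the Id proteins, which hold back Myod1 by binding its partners, gave no call. In the list of myoblast and Notch genes 9 of 20 were above 0 and 11 below, with a median of -0.02. Id1, Id2 and Id3 had log2 changes of -0.14 ± 0.15, -0.08 ± 0.22 and -0.37 ± 0.13, with adjusted p = 0.779, 0.932 and 0.289. Id1 and Id2 changed sign when replicate 3 was left out. Id3 averaged 2335 ± 311 at 12 h and 3015 ± 311 at 4 h and its hours did not overlap. Pax7, the factor of the muscle stem cell, averaged 250.3 ± 86.2 at 12 h and 347 ± 118 at 4 h, and Sdc4, a surface proteoglycan of such cells, 1025 ± 113 at 12 h and 1486 ± 267 at 4 h (adjusted p = 0.351 for Pax7 and 0.177 for Sdc4). Heyl, a Notch target, averaged 338 ± 146 at 12 h and 199 ± 56.0 at 4 h (adjusted p = 0.295). Igf2, a growth factor that myoblasts secrete, averaged 12027 ± 2277 at 12 h and 11936 ± 3683 at 4 h (0.04 ± 0.14). A dimmer Igf2 probe set had a log2 change of 0.60, above 0 in all 3 replicates (adjusted p = 0.332).

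Genes of cell division had lower intensities at 12 h, mitosis genes most often. Of 43 tested mitosis genes 41 had a log2 change below 0, with a median of -0.52. At an unadjusted p under 0.05 in the batch fit 27 were lower and 0 higher, against 4.8% of all genes lower. None was called after adjustment, while replicates 1 and 2 alone called 11 lower and 0 higher, against 0.498% of all genes. In 32 of the 43 the 12 h array was lower in all 3 replicates, against 14.7% of all genes. In 0 of 43 were all 12 h arrays lower than all 4 h arrays, against 3.93% of all genes, beside the higher level of replicate 3 given above. In the 36 tested S phase genes the median was -0.19, with 31 below 0, 8 lower and 1 higher at an unadjusted p under 0.05, and 2 called lower over replicates 1 and 2. G1 control had a median of 0.00, with 12 of 24 genes on each side.

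Ckap2, a microtubule-binding protein of the mitotic spindle outside the list, was called. It read 233, 365 and 872 at 12 h, against 624, 712 and 1441 at 4 h. Each replicate was lower at 12 h, but the 12 h array of replicate 3 was above the 4 h arrays of replicates 1 and 2. The log2 change was -0.98 ± 0.17 (adjusted p = 0.0309 in limma's batch fit, 0.0555 with the replicate block). Mki67, the proliferation marker that coats mitotic chromosomes, read 286, 340.4 and 828 at 12 h, against 705, 675 and 1281 at 4 h, with the same overlap (-0.92 ± 0.19, adjusted p = 0.0796, and 0.00638 over replicates 1 and 2). Incenp, a scaffold of the chromosomal passenger complex, averaged 531 ± 286 at 12 h and 1016 ± 510.0 at 4 h (-0.90 ± 0.18, adjusted p = 0.0771). Kif22, a chromosome-bound kinesin, and Smc4, a condensin subunit, had log2 changes of -0.58 and -0.75 (adjusted p = 0.0796 and 0.1). Another Smc4 probe set gave a value near 0. Top2a, the topoisomerase that untangles sister chromatids, averaged 847 ± 619.7 at 12 h and 1361 ± 634 at 4 h (-0.79 ± 0.18, adjusted p = 0.102, or 0.00795 over replicates 1 and 2), and its B probe set gave -0.27 (adjusted p = 0.767).

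Among S phase genes, Rrm2 (a subunit of ribonucleotide reductase) averaged 2737 ± 799 at 12 h and 4170.5 ± 1171 at 4 h and Fen1 (the flap endonuclease of lagging strand synthesis) 863 ± 343 at 12 h and 1372 ± 298 at 4 h, with adjusted p = 0.119 and 0.172 and 0.0362 and 0.035 over replicates 1 and 2. Pola1, the catalytic subunit of polymerase alpha, had a log2 change of -0.62 and Cdc6, which loads the replicative helicase in G1, one of 0.75. Both were dim, with adjusted p = 0.331 and 0.216. Of the G1 genes the inhibitor Cdkn1c (p57) had the smallest p: 4656, 4416 and 1959 at 12 h, against 3025, 2454 and 739 at 4 h. It was higher at 12 h in each replicate, by 0.94 ± 0.21 on the log2 scale (adjusted p = 0.1, and 0.0191 over replicates 1 and 2), and with replicate 3 dimmest the groups overlapped. It then averaged 5229 at 24 h and 1222 at 48 h. The inhibitor Cdkn1a (p21) read 12293, 10839 and 9558 at 12 h, against 11317, 9624 and 8981 at 4 h, a log2 change of 0.13 ± 0.11 (adjusted p = 0.721). Ccnd1, cyclin D1, averaged 2793 ± 525 at 12 h and 2949 ± 850.0 at 4 h (-0.06 ± 0.13), and its kinase Cdk4 3109 ± 219 at 12 h and 3831 ± 391 at 4 h (adjusted p = 0.353). The inhibitor Cdkn2d (p19) and the pocket protein Rbl1 (p107) had log2 changes of -0.35 and -0.49, neither called.

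**Figure D3:**
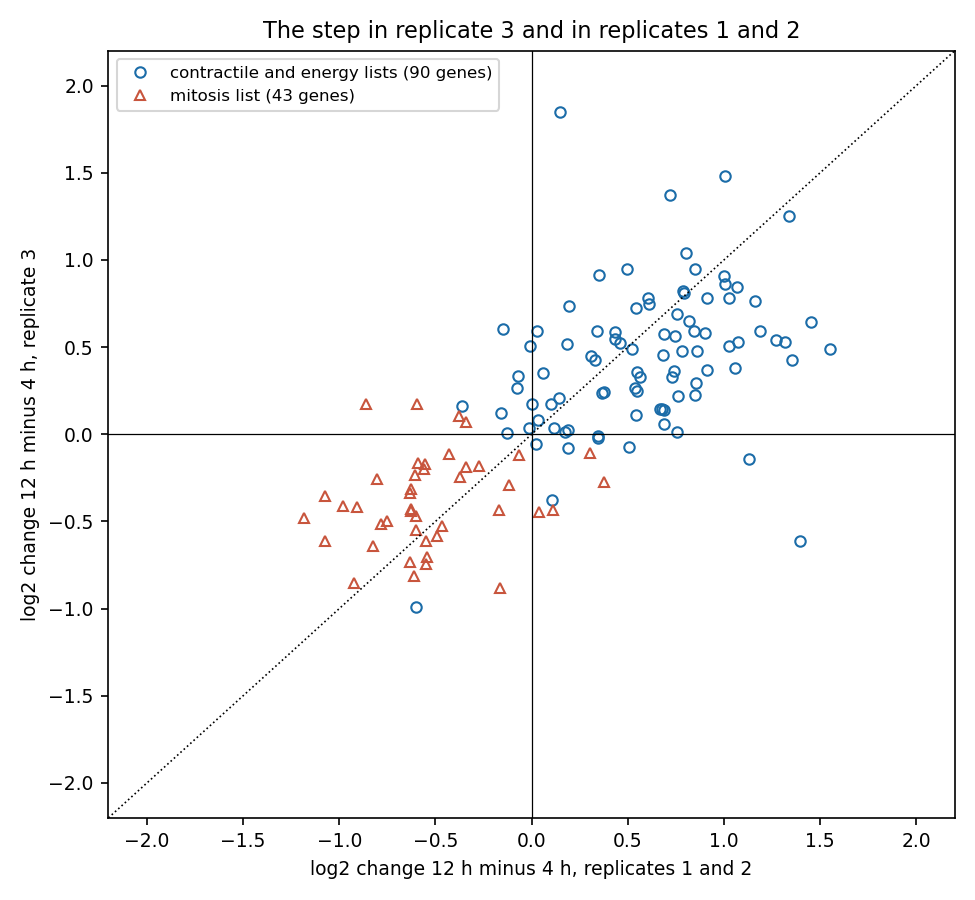
Log2 change between 12 h and 4 h in replicate 3 (vertical) against that in replicates 1 and 2 together (horizontal) for the 90 contractile and energy genes (circles) and the 43 mitosis genes (triangles), with a dotted line where both are equal. Most circles lie in the upper right and most triangles in the lower left, and 56 of 90 and 30 of 43 changed less in replicate 3 than in replicates 1 and 2.

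Promoter sequences of 6 genes are shown, chosen after their values were seen, because genes of mitosis and of muscle are often described by shared promoter elements, namely CCAAT boxes in mitotic genes and E-boxes, the binding sites of Myod1 and Myog, in muscle genes. Mki67 and Kif22 belong to the mitosis list and Pygm and Ckm to the energy list. Ckap2 (in no list) and Gys1 (of the glycolysis and glycogen list) were called, and neither enters the shares of mitosis or of contractile and energy genes below. The 250 bases before each RefSeq start site (GRCm38.p6) were searched on both strands. At least 1 CCAAT was found in 28 of 35 matched mitosis genes (80.0%), against 37.5% of the 27025 genes of the promoter table. It was found in 36.4% of matched contractile and energy genes. The cell cycle element TTTGAA was found in 14 of the 35, against 18.3% of all genes. The E-box CAGCTG was found in 32 of 66 matched contractile and energy genes (48.5%), against 14.7% of all genes, and in 11.4% of mitosis genes. The general E-box CANNTG, which includes CAGCTG, was found in 86.4% against 69.3%, and the MEF2 motif in 16.7% against 1.99%. An NF-kappaB motif, searched as well, was found in 13.6% of contractile and energy genes and 5.71% of mitosis genes, against 6.73% of all genes. A match is a run of letters, not a shown site of binding. Mki67 (chr7:135716380-135716629, minus strand), Kif22 (chr7:127042421-127042670, minus strand) and Ckap2 (chr8:22185820-22186069, minus strand) follow 5′ to 3′ in the direction of transcription, with CCAAT or its reverse complement in capitals.
Mki67: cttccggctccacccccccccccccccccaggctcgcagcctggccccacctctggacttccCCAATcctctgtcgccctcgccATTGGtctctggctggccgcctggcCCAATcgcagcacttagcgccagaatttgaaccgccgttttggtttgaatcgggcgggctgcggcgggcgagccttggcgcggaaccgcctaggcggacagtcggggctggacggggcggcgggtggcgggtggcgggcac
Kif22: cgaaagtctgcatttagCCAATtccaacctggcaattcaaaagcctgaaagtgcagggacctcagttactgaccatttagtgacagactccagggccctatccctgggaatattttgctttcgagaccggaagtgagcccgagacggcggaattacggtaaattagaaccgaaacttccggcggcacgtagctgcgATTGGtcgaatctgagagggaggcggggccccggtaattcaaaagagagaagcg
Ckap2: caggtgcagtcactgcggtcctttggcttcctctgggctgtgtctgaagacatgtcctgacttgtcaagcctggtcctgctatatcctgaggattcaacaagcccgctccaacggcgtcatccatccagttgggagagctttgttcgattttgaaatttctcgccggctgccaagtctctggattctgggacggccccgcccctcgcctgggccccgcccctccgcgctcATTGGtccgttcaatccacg

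In Mki67 the 3 matches lie together, 188 to 141 bases before the start, and the single match of Ckap2 begins 20 bases before it. The energy genes Pygm (chr19:6384158-6384407, plus strand) and Ckm (chr7:19410844-19411093, plus strand) and the glycogen gene Gys1 (chr7:45434589-45434838, plus strand) follow in the same way, with CAGCTG in capitals. Pygm has 2 matches, the nearer of them beginning 8 bases before the start. Gys1 also holds CCAAT, left in lower case here.
Pygm: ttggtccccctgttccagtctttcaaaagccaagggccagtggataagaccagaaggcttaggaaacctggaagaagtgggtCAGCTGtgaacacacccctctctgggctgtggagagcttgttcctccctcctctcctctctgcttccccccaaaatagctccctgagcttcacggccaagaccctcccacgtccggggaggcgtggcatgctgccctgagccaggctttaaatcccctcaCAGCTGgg
Ckm: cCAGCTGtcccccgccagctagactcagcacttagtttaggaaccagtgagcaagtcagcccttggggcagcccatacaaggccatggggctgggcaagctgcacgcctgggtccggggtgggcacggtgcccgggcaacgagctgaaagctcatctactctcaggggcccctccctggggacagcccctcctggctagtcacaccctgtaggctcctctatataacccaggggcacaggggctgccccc
Gys1: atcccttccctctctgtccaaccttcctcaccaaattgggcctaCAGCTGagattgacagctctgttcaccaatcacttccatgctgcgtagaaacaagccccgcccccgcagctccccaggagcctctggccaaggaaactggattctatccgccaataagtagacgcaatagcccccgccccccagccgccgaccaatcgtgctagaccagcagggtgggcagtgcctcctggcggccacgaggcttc

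Outside these groups the hormone gene Fgf21 had the largest rise among the named A calls. Fgf21 is a circulating metabolic hormone that muscle makes under mitochondrial or amino acid stress. It read 2444, 2576 and 832 at 12 h, against 1069, 915 and 445 at 4 h. Replicate 3 was dimmer at both hours, so the groups overlapped although each replicate was higher at 12 h. The log2 change was 1.17 ± 0.19 (adjusted p = 0.0309 in limma's batch fit, 0.0555 with the replicate block, and 0.000853 over replicates 1 and 2 alone). It averaged 552 at 0 h, 809.8 at 4 h, 1951 at 12 h, 3025 at 24 h and 843 at 48 h. The amino acid response list, which holds Fgf21, had a median of -0.01 over 27 tested genes. Slc7a5 (a transporter of large neutral amino acids), Asns (asparagine synthetase) and Gpt2 (an alanine transaminase) had log2 changes of 0.46, 0.24 and 0.45, with adjusted p = 0.332, 0.478 and 0.511.

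Pdk4, a kinase that inhibits pyruvate dehydrogenase, fell. It read 1005, 1081 and 438 at 12 h, against 1928, 2310.4 and 724 at 4 h. It was lower at 12 h in each replicate, with replicate 3 again dimmer and the groups overlapping. The log2 change was -0.90 ± 0.14 (adjusted p = 0.0309, 0.0531 with the block). In the glycolysis and glycogen list, with the brightest probe set of each gene, Pdk4 was the only gene called (19 tested, median 0.09). Over all genes 0.0402% were called lower and 0.0321% higher. Gys1 belongs to this list too, and its called probe set is the dimmer one. Pdk1, a relative of Pdk4 known as a hypoxia target, averaged 284 ± 47.1 at 12 h and 177 ± 21.1 at 4 h. It thus went in the direction opposite to Pdk4, without overlap (adjusted p = 0.309). The liver-type phosphofructokinase Pfkl averaged 1092 ± 499 at 12 h and 791 ± 212 at 4 h (adjusted p = 0.359). Pdk4 also belongs to the FoxO and glucocorticoid targets (16 tested, median 0.01), where Zbtb16 and Errfi1 had log2 changes of 0.68 and 0.38, not called.

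**Figure D4:**
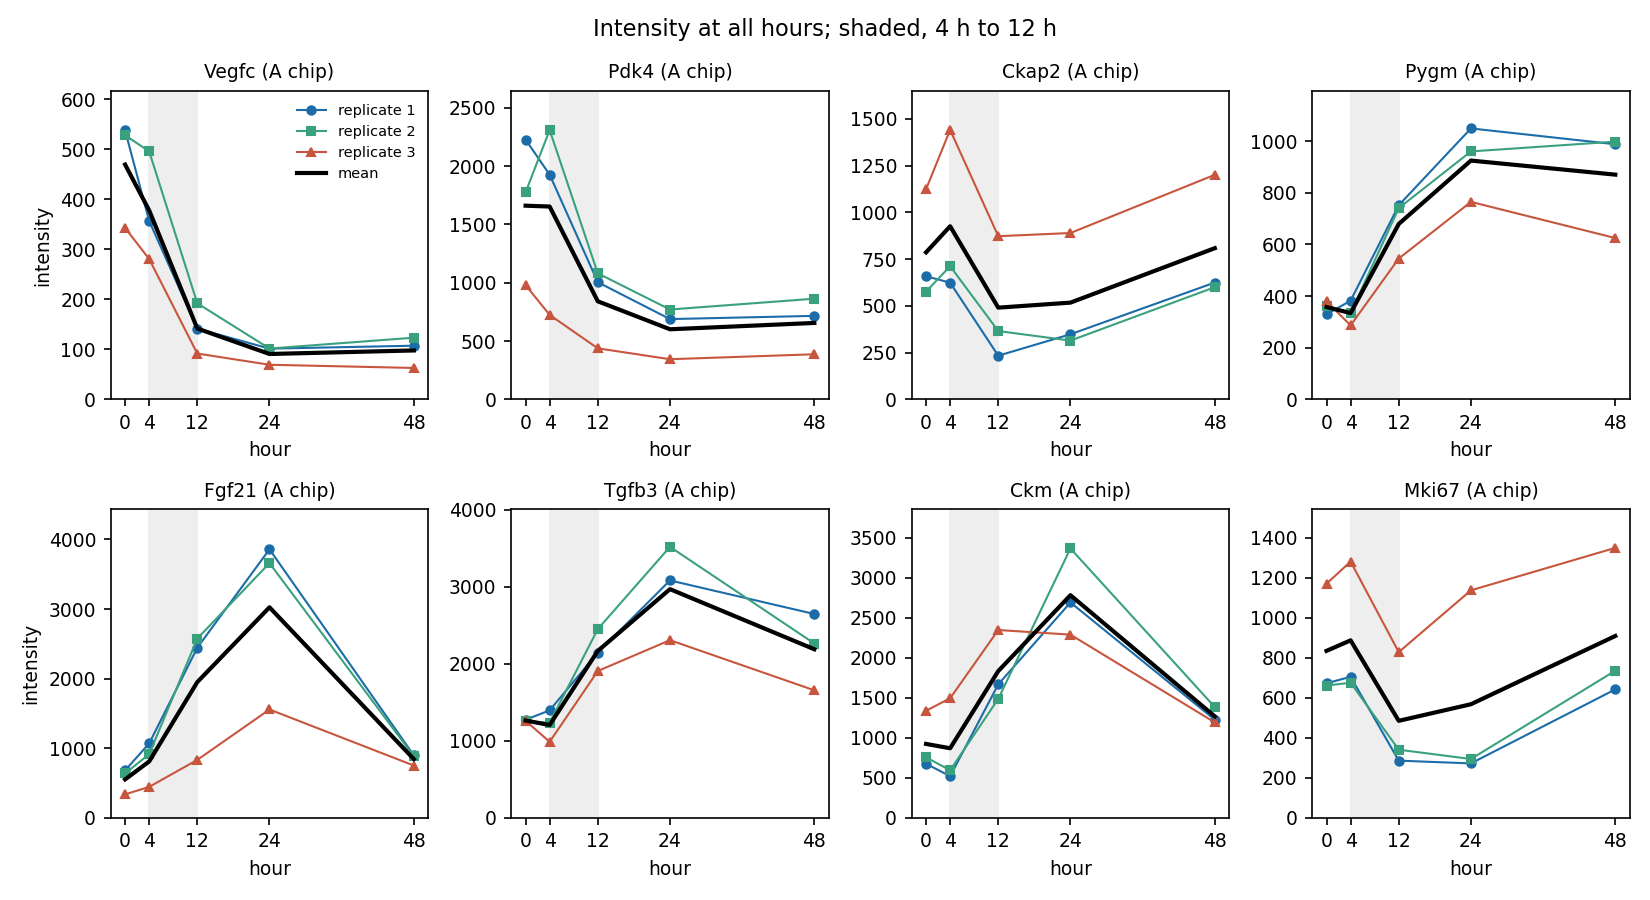
Intensity over all 5 hours (horizontal axis in h, vertical axis linear from 0) for Vegfc, Pdk4, Ckap2, Pygm, Fgf21, Tgfb3, Ckm and Mki67, with 1 coloured line per replicate, a black line for the mean and the interval between 4 h and 12 h shaded. Vegfc and Pdk4 keep low means after 12 h, the means of Pygm, Fgf21, Tgfb3 and Ckm are higher still at 24 h, and Ckap2 and Mki67 have higher means at 48 h than at 12 h.

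The cholesterol synthesis and uptake list had mostly positive changes without a call: 18 of 20 genes had a log2 change above 0, with a median of 0.18. At an unadjusted p under 0.05 in the batch fit 4 were higher and 0 lower, against 6.66% and 4.8% of all genes, and 0 passed over replicates 1 and 2. Msmo1, a sterol methyl oxidase, read 1007, 1140.3 and 3011 at 12 h, against 726, 533 and 2129 at 4 h, and replicate 3 was the brightest at both hours (0.67 ± 0.20, adjusted p = 0.205). Sqle (squalene epoxidase), Idi1 (an isomerase of the isoprene units) and Hsd17b7 (a sterol ketoreductase) had log2 changes of 0.27, 0.45 and 0.49. Both other Hsd17b7 probe sets gave values below 0.

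Among signalling ligands Tgfb3 rose. It encodes a TGF-beta family ligand and read 2143, 2449 and 1905 at 12 h, against 1395, 1233 and 987 at 4 h. The hours did not overlap, and the log2 change was 0.84 ± 0.13 (adjusted p = 0.0284 in limma's batch fit, 0.0531 with the block). Its relative Tgfb2 averaged 385 ± 125 at 12 h and 516 ± 77.0 at 4 h (adjusted p = 0.368), with a second probe set near 0. Inhba, the activin A subunit, averaged 245 ± 166 at 12 h and 361 ± 47.6 at 4 h, and replicate 1 alone was below 100 at 12 h. Smad6, an inhibitor of BMP signalling that BMP itself induces, read 225, 231 and 243 at 12 h, against 282, 408 and 455 at 4 h, without overlap (log2 change -0.62 ± 0.17, adjusted p = 0.172). The 21 tested genes of the BMP and TGF-beta list had a median of -0.13.

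In the list of ERK feedback genes, the 3 with the smallest p were higher at 12 h in each replicate, short of a call. Dusp6, the ERK phosphatase, read 417, 371 and 677 at 12 h, against 179.9, 254 and 369 at 4 h. Spry1, an inhibitor upstream of Ras, read 1054, 920.4 and 751 at 12 h, against 573, 488 and 407 at 4 h. Etv5, an ETS factor that ERK activates, read 206, 229 and 223 at 12 h, against 124, 140.4 and 139 at 4 h. No array at 12 h fell within the 4 h range for any of the 3. The log2 changes of 0.81 ± 0.17, 0.85 ± 0.19 and 0.60 ± 0.15 had an adjusted p of 0.0798, 0.1 and 0.119, and Spry1 passed over replicates 1 and 2 alone (0.0219). Ier3, another early target, went the other way in each replicate, with a log2 change of -0.45 (adjusted p = 0.288, 0.0393 over replicates 1 and 2). Over the 16 tested genes the median was 0.14, and 5 were higher and 1 lower at an unadjusted p under 0.05, against 6.66% and 4.8% of all genes.

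Nfkbia, the inhibitor that NF-kappaB induces to restrain itself, fell. The called probe set read 471, 405 and 606 at 12 h, against 719, 761 and 1033 at 4 h, without overlap (-0.73 ± 0.13, adjusted p = 0.0318, 0.0609 with the block). A brighter probe set read 2665, 2719.6 and 3103 at 12 h, against 3477, 4352 and 5249 at 4 h, also without overlap but not called (-0.60 ± 0.13, adjusted p = 0.0796). The other 3 had log2 changes of -0.69 (B), -0.66 and -0.31 (A), none called. The list of NF-kappaB targets and cytokines had 13 of 29 genes tested, 7 of them below 0, and a median of -0.29. Nfkb2 (the p100 subunit), the chemokine Cxcl12 and Ptgs2 (cyclooxygenase-2) had log2 changes of -0.37, -0.34 and -0.49, with adjusted p = 0.38, 0.482 and 0.512. Another Cxcl12 probe set went the other way. Macrophage and leukocyte markers, whose sums overlapped between the hours, had 3 of 7 genes below the pseudocount of 29 on average.

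The metallothioneins Mt1 and Mt2, which bind zinc and copper, had the smallest p among the 15 tested genes of oxidative stress (median 0.06). Mt2 read 943, 903 and 1233 at 12 h, against 2143, 1436 and 3138 at 4 h, without overlap, with a log2 change of -1.05 ± 0.20 (adjusted p = 0.0671, and 0.0344 over replicates 1 and 2). Mt1 averaged 1014 ± 402 at 12 h and 1595 ± 399 at 4 h (-0.68 ± 0.14, adjusted p = 0.0796). At 0 h Mt2 averaged 982, close to its 12 h level, so the 4 h arrays were the bright ones. Gclc, which limits glutathione synthesis, followed the same course: 928 at 0 h, 1789.7 at 4 h and 1081 at 12 h on average (12 h against 4 h, adjusted p = 0.2). Mt1, Mt2 and Gclc all passed as lower over replicates 1 and 2 alone. In that fit 3 of the 15 were called lower and 1 higher, against 0.498% and 0.667% of all genes. At an unadjusted p under 0.05 in the batch fit 4 were lower and 1 higher, against 4.8% and 6.66% of all genes. Gsta4, a glutathione transferase, read 1601, 1388 and 478 at 12 h, against 556, 413 and 511 at 4 h. It was higher at 12 h in replicates 1 and 2 (adjusted p = 0.00115 over these 2) and not in replicate 3, so that the batch fit gave 1.02 ± 0.38 with adjusted p = 0.324.

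Heat shock genes had a median log2 change of 0.17 over 17 tested, with 14 above 0. At an unadjusted p under 0.05 in the batch fit 5 were higher and 0 lower, against 6.66% and 4.8% of all genes, and 2 were called higher over replicates 1 and 2, against 0.667%. Those with the smallest p were mostly the small heat shock proteins abundant in muscle. Hspb3 averaged 539 ± 33.9 at 12 h and 297 ± 36.8 at 4 h, Hspb8 3067 ± 759 at 12 h and 2092 ± 529 at 4 h and Cryab (alpha B crystallin) 6864 ± 1157 at 12 h and 4871 ± 528 at 4 h. The large chaperone Hsph1 averaged 3887 ± 783 at 12 h and 2906 ± 493 at 4 h. Their adjusted p in the batch fit, in that order, were 0.255, 0.183, 0.263 and 0.191. Only Hspb3 of these 4 passed over replicates 1 and 2 (0.0223).

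Matrix genes were mixed. In the list of secreted matrix proteins 17 of 25 were below 0 (median -0.13) and in the collagen list 11 of 23 (median 0.04), with no call in the batch fit. Smoc2, a secreted calcium-binding matrix protein, read 301, 344 and 448 at 12 h, against 707, 1093 and 1135 at 4 h, without overlap (-1.34 ± 0.28, adjusted p = 0.0796, and 0.0182 over replicates 1 and 2). It averaged 1237 at 0 h and 101 at 24 h. Col2a1, the collagen of cartilage, read 298, 489.7 and 355 at 12 h, against 1012, 1639 and 551 at 4 h, without overlap (-1.32 ± 0.37, adjusted p = 0.174, and 0.0138 over replicates 1 and 2). The cartilage and bone markers, Col2a1 among them, summed to 609 to 1058 at 12 h and 913 to 2066 at 4 h. Col2a1 was the brightest of them, and each of the others measured overlapped between the hours. The part of these markers in the Col2a1 value was not tested. P4ha1, which hydroxylates collagen, averaged 919 ± 70.3 at 12 h and 633 ± 88.5 at 4 h, without overlap and higher at 12 h (adjusted p = 0.105). Col5a2, a fibrillar collagen, and Loxl1, a crosslinking oxidase, had log2 changes of -0.33 and 0.34. Fbn2 (fibrillin 2), Fbln5 (an elastic fibre protein) and Ccn5 (a matricellular protein) had -0.69, 0.52 and 0.56, with adjusted p = 0.382, 0.328 and 0.242. The fibroblast marker sums given above overlapped between the hours, and their part was not tested.

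Of the remaining calls, Creld1, a membrane-anchored EGF-domain protein linked to heart septation in humans, read 2784, 2509 and 1525 at 12 h, against 1510.0, 1641 and 972 at 4 h (0.70 ± 0.12, adjusted p = 0.0397, 0.0675 with the block). Replicate 3 was dimmer at both hours and the groups overlapped. Asb4, an ankyrin repeat protein that recruits targets to a ubiquitin ligase, read 401, 429 and 262 at 12 h, against 741, 693 and 424 at 4 h (-0.71 ± 0.12, adjusted p = 0.0309, 0.059 with the block), also with overlap. A second Asb4 probe set, dimmer, had -0.35 (adjusted p = 0.507). Gnb4, a beta subunit of heterotrimeric G proteins, read 1182, 1287 and 923 at 12 h, against 1917, 1850.3 and 1724 at 4 h, without overlap (-0.69 ± 0.11, adjusted p = 0.0309, 0.0555 with the block). Its other A probe set had a log2 change of -0.49 (adjusted p = 0.127) and its B probe set one of -0.28 (adjusted p = 0.514). A further A probe set, unnamed here, read 1021, 1018 and 774 at 12 h, against 559.5, 409.9 and 303 at 4 h (1.12 ± 0.20, adjusted p = 0.0397, 0.0641 with the block). On B, after Vegfc, the smallest p belonged to Hnrnpdl, an RNA-binding protein, which read 2506, 2419 and 2685 at 12 h, against 3744, 4076 and 4598 at 4 h, without overlap but short of a call (-0.69 ± 0.11, adjusted p = 0.0532). On A the 6 tested Hnrnpdl probe sets had log2 changes of -0.63 to -0.005, and the brightest had -0.32 (adjusted p = 0.216). One probe set of Apba1, an adaptor best known in neurons, read 309, 319.8 and 447 at 12 h, against 66.6, 91.1 and 77.4 at 4 h, the largest positive log2 change given here at 1.63 ± 0.29 (adjusted p = 0.14). Its other 2 B probe sets had log2 changes of 0.24 and 0.12.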

How the data were processed

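Probe set intensities were used as the authors deposited them, 1 column per array, with replicates not pooled. The values are linear, and per the labels a standard Affymetrix protocol was followed. Which software and summary algorithm made them, on which build, is not given in the sources used here. All arrays had the same trimmed mean (2% trimmed), so they had been scaled as a whole and no further scaling was applied. The A chip held 22690 and the B chip 22575 probe sets, 64 of each being controls, which were left out. Probe sets were named from GEO's platform annotation: 20380 on A and 14661 on B had 1 gene, 691 and 245 several and 1555 and 7605 none.

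Hour, chip and replicate came from the titles. Intensities were taken to log2 after adding the chip's 20th percentile as a pseudocount, 29 on A and 54 on B, which understates changes of dim genes, and only the upper 60%, ranked by mean log2 value, were tested. Each chip was fitted on its own over its 15 arrays in limma 3.58.1 (lmFit, contrasts.fit, eBayes with trend; R 4.3.3), with hour as the factor and again with a term for replicate 3 (the batch fit). Adjusted p-values are Benjamini-Hochberg over the chip, tests are two-sided, and calls are at 0.05. SE and adjusted p come from the batch fit unless another is named. The fits were tested on simulated data.

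For lists 1 probe set stood for a gene, the brightest, from A where tested there (12446 genes). The members, the 42 gene lists, the replicate 3 term and the tests were chosen with earlier results of these data known. The genes named are those called in the hour fit, then the batch fit, with the same sign in all 3 replicates (up to 10 higher and 10 lower on A, 5 and 5 on B, filled from the smallest p to 5 and 5 on A and 2 and 2 on B), 17 genes given whatever their test, and up to 4 of each described list with the smallest batch fit p. Replicate numbers in the titles are the only source of a pairing. Deviations of 12 h and 4 h arrays of the same number from their hour's mean correlated at 0.27, 0.35 and 0.66 on A and at 0.00, 0.15 and 0.39 on B. Between numbers 1 and 2 the correlations were 0.33 and 0.39 on A and 0.32 and 0.09 on B. On both chips only number 3 thus correlated more with itself than with the others. The blocked value is printed beside A calls. Promoters come from RefSeq. Alternatives were other scalings, pseudocounts and filters, the 2 hours alone, eBayes without trend, array weights, the replicate block, replicates 1 and 2 alone, other probe sets and leaving out each array.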

Additional observations from a re-analysis of the deposited data

How the results depend on the processing

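With hour as the factor, 0 probe sets were called on either chip under every alternative that kept that model. Adding a term for replicate 3 gave 12 on A and 2 on B, the replicate block 1 and 2, and replicates 1 and 2 alone 196 and 15. By the correlations only number 3 paired with itself on either chip. The blocked count of B stands only here. In the batch fit the A count of 12 was 74 with the 4 h and 12 h arrays only (49 higher, 25 lower), 30 with array weights (16 and 14) and 1 without the eBayes trend. It ran between 0 and 5 when 1 array was left out, where fewer samples were fitted. The B count of 2 ran between 2 and 4. Other scalings, pseudocounts and filters kept both counts within 1.5 times. The cause was not tested. Of 2016 alternatives to the 107 named values, 1842 kept sign and side of the threshold, 101 lost a call, 65 gained one and 8 changed sign. The Vegfc probe sets were called in 15 of 18 alternatives on A and 18 of 19 on B, the other called genes in 7 to 11 of 19. Replicates 1 and 2 alone turned Ccnd1 (0.016), Id1 (0.063), Id2 (0.10) and Igf2 (-0.053). With 1 array left out Id2 ran between -0.22 and 0.15 (highest without the 4 h array of replicate 3) and Igf2 between -0.036 and 0.15 (below 0 without the 4 h array of replicate 1 or 3). Quantile normalization turned Chrna1 (0.020). Of 98 other probe sets of named genes 91 had the same sign. The others were Atp2a2 (-0.17), Cxcl12 (0.62), Hsd17b7 (-0.012 and -0.40), Pdgfb (-0.18), Smc4 (0.057) and Tgfb2 (0.0060). None of these was called. With 3 arrays per hour and no probe level files used here, signal over background could not be set for dim genes.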

Other observations

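Several lists not described above stayed close to the median of all genes, 0.02. The 52 tested genes of oxidative phosphorylation had a median log2 change of 0.04, beside the muscle isoform genes of energy supply at 0.77. Of them 0 reached an unadjusted p under 0.05 in the batch fit, against 6.66% of all genes higher and 4.8% lower. The 31 proteasome genes had a median of 0.04 and the 18 tRNA synthetases one of 0.03, also with 0 at that threshold. Of the 28 tested cytosolic ribosomal protein genes 25 were below 0, with a median of -0.14, but the median was 0.08 in replicate 1, -0.27 in replicate 2 and -0.24 in replicate 3. Ribosome biogenesis had a median of -0.07, with 6 of 32 genes lower and 0 higher at an unadjusted p under 0.05, against 4.8% and 6.66% of all genes.

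Other lists that border on the sarcomere had medians below its own. Genes of fusion and the sarcolemma had a median of 0.16, with 18 of 21 above 0, 6 higher and 1 lower at an unadjusted p under 0.05 (6.66% and 4.8% of all genes), and 1 called higher over replicates 1 and 2 (0.667% of all genes). Those of the acetylcholine receptor and synapse had a median of 0.13, with 6 of 10 above 0. The hypoxia list had a median of 0.22, with 10 of 12 above 0 and 4 higher and 0 lower at an unadjusted p under 0.05, against the same shares of 6.66% and 4.8%. Targets of Srf or YAP and smooth muscle genes had a median of -0.12, at -0.24 in replicate 1, -0.19 in replicate 2 and 0.13 in replicate 3, and 3 of 21 were called lower over replicates 1 and 2, against 0.498% of all genes. No difference between these lists and the sarcomere lists was tested.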
